A study of Mus musculus with 6 samples.

Results

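The transporters and marker proteins of the kidney tubule were examined in ATAC-seq data from 3 mouse cell lines, one of which came from a renal tumor. The 10 genes, of 22367 protein-coding genes in the annotation, were *Lrp2*, *Cubn*, *Slc5a2*, *Slc22a6*, *Aqp1*, *Slc12a1*, *Umod*, *Slc12a3*, *Aqp2* and *Cdh16*. They were chosen by name as segment markers, and a peak was assigned to a gene when it overlapped the gene body or the 10 kb on either side of it in mm9. The renal line, Pax6-OFF, had no peak in the windows of 6 of the 10 genes. These were *Slc5a2*, *Slc22a6*, *Aqp1*, *Slc12a1*, *Umod* and *Slc12a3*. Under the same rule, 48.9% of all protein-coding genes had a peak in that line, so this count does not set the 10 genes apart.

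The kidney tubule recovers most of what the glomerulus filters, and each segment does so with its own transporters. The proximal tubule takes back protein, glucose and water and secretes organic anions. The thick ascending limb and the distal convoluted tubule reabsorb salt through related cotransporters, and the collecting duct adjusts water under the control of vasopressin. Genes of this kind are transcribed strongly in their own segment, and cultured kidney cells often lose much of that expression.

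ATAC-seq reads open chromatin with the Tn5 transposase, which cuts exposed DNA and attaches adapters to it, so a pile of fragments marks an open site. The insulinoma line β-TC3, from a tumor of insulin-producing cells, stood for Pax6-HIGH. The lens line MV+, grown from the lens epithelium of a wild-type C57BL6 mouse, stood for Pax6-ON, and the renal line RAG, from a BALB/c adenocarcinoma of the kidney, for Pax6-OFF. Each condition was therefore a single untreated line, named for its level of the transcription factor Pax6, and the lines were not authenticated. Each line had 2 replicates of 50000 nuclei, which the authors pooled in a single peak call, so no value below has a replicate error and no test was possible. Nuclei were released with 0.2% NP40 in Pax6-ON and 0.1% NP40 in the other lines, and its effect and that of the line cannot be told apart. In the order Pax6-HIGH, Pax6-ON, Pax6-OFF, the lines gave 100254099, 130955836 and 102223606 fragments and 28024, 9821 and 14022 peaks. The lowest pileup of any called peak, the number of fragments at its summit, was 25, 30 and 25. Absence of a peak thus means only that no site was called at this depth.

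Between 20% and 40% of the tubule genes had a peak, which was below the genome-wide share in each line. The counts of the lens and renal lines lay close to those shares. With only 10 genes and no test, the counts do not set these genes apart in any line. In Pax6-HIGH cells, 4 of the 10 genes had at least 1 peak, against 61.6% of all protein-coding genes under the same rule. In Pax6-ON cells, 2 of 10 had a peak, against 30.6%. In Pax6-OFF cells, 4 of 10 had a peak, against 48.9%. The counts of the renal and insulinoma lines were equal, from files of unequal size. With each line held to its 9821 peaks of smallest q-value, the renal line had a peak at 3 tubule genes (*Lrp2*, *Cubn* and *Cdh16*). The other lines then had a peak at 2 each (*Cubn* and *Aqp1*). The share of all genes at that setting is not given, so this order of the lines is not a result about the tubule genes. In the full files, *Lrp2*, *Cubn* and *Cdh16* had peaks in both Pax6-HIGH and Pax6-OFF cells. *Aqp1* had peaks in Pax6-HIGH and Pax6-ON cells, and *Aqp2* had a peak in Pax6-OFF cells. *Cubn* was the only gene with a peak in all 3 lines. In a pooled population, a site open in few cells and a site weakly open in many cannot be told apart.

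A peak at the gene's own transcript start, within 1 kb of it, was rarer still. *Aqp1* had such a peak in Pax6-HIGH cells and *Cdh16* in Pax6-OFF cells, and no tubule gene had one in Pax6-ON cells. Of all protein-coding genes, 46.4% had a peak at a start in the insulinoma line, 21.4% in the lens line and 36.1% in the renal line. The counts for the tubule genes were 1, 0 and 1 of 10.

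**Figure D1:**
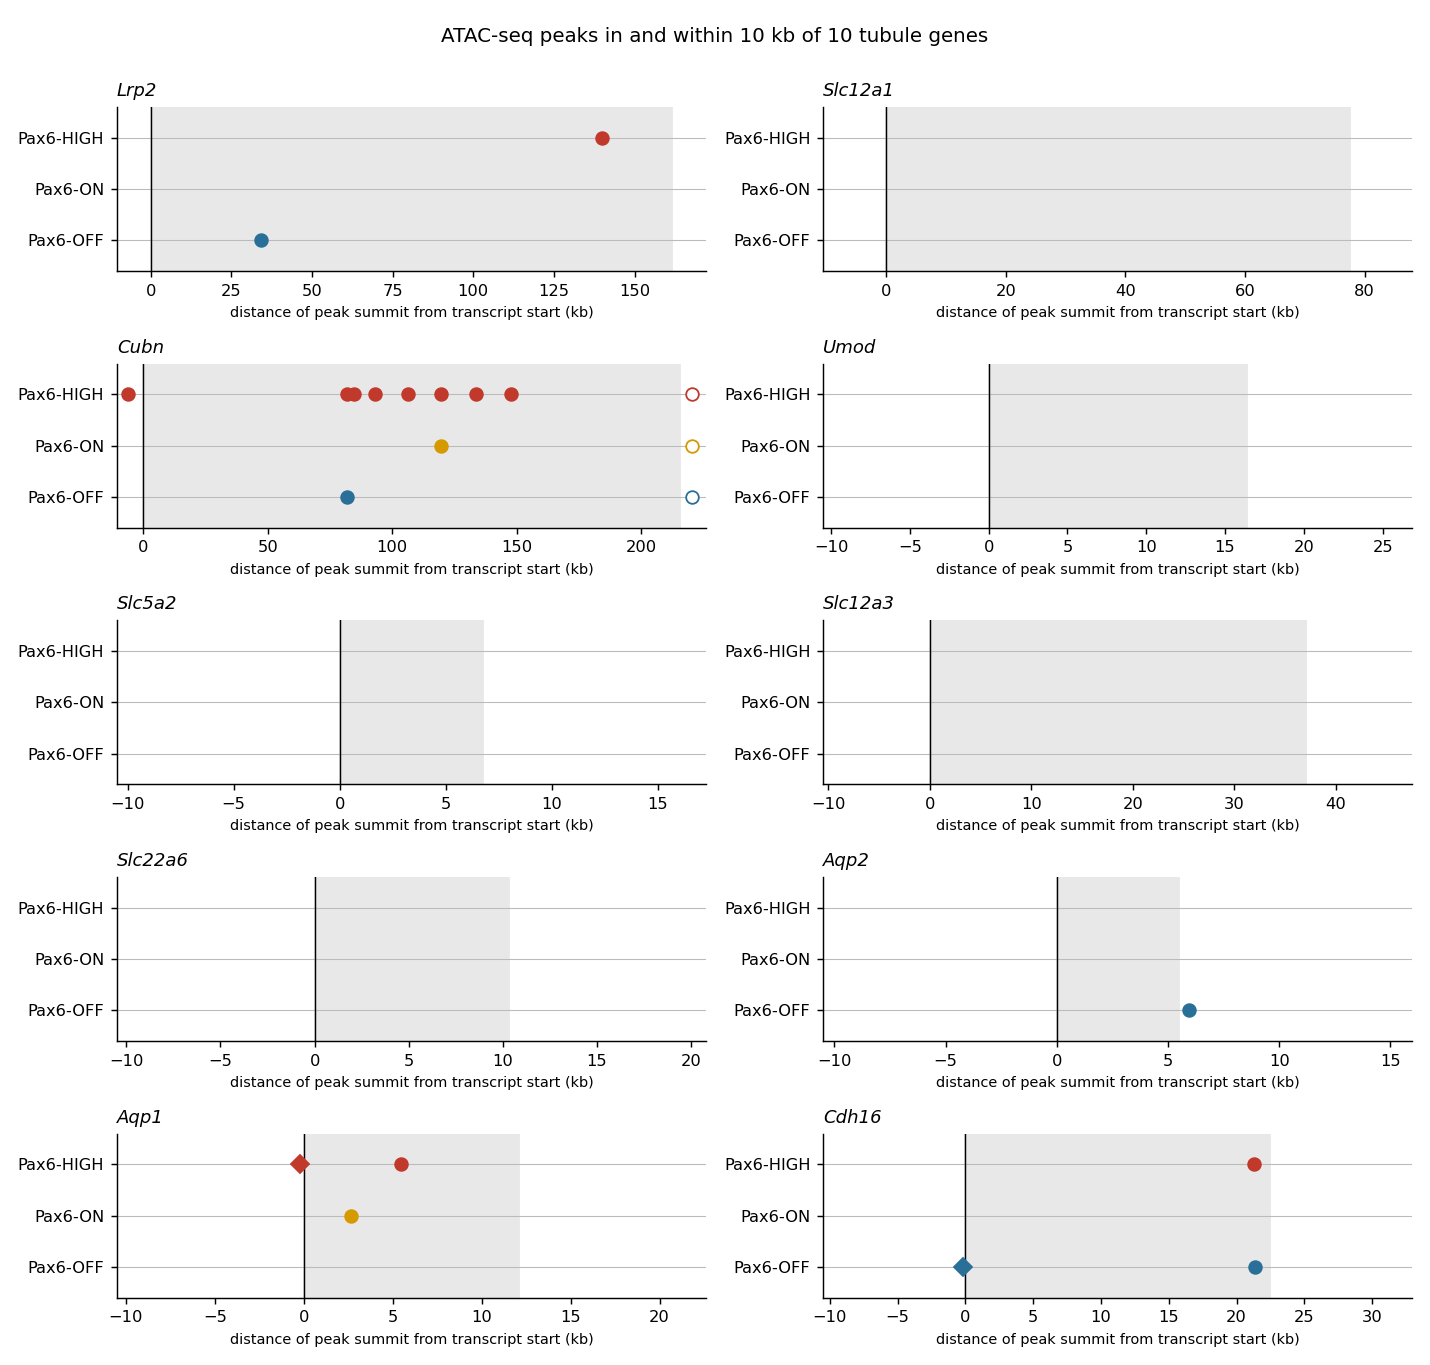
Peaks in the windows of the 10 tubule genes in each cell line, plotted by distance of the summit from the gene's transcript start in kb. Gray bars are gene bodies, diamonds are peaks at the gene's own start and open circles are peaks at the start of another gene. *Cubn* holds most of the Pax6-HIGH peaks, and 5 genes carry no symbol in any line.

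These shares differed with window length. In the shortest class, under 30 kb, 33.4% of all genes had a peak in Pax6-OFF cells, 42.3% in Pax6-HIGH cells and 17.6% in Pax6-ON cells. Of the 2 tubule genes in it, *Aqp2* had a peak in Pax6-OFF cells and *Slc5a2* had none. Between 30 and 60 kb, the shares of all genes were 56.5%, 69.2% and 33.6% for the renal, insulinoma and lens lines. Of the 5 tubule genes of that class (*Slc22a6*, *Aqp1*, *Umod*, *Slc12a3* and *Cdh16*), the renal line had a peak at *Cdh16*, the insulinoma line at *Cdh16* and *Aqp1*, and the lens line at *Aqp1*. *Slc12a1* alone fell between 60 and 120 kb, where it had no peak and the shares of all genes were 63.4%, 79.2% and 41.9% in the same order. Over 120 kb, where they were 60.8%, 83.0% and 52.6%, both *Lrp2* and *Cubn* had a peak in the renal and insulinoma lines, and *Cubn* alone in the lens line.

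Among the genes of the proximal tubule, *Lrp2* encodes megalin, the large endocytic receptor of the brush border. *Lrp2* (ENSMUSG00000027070.8) lies on chromosome 2 from 69262397 to 69424122 on the minus strand. Its window held 1 peak in the insulinoma line, none in the lens line and 1 in the renal line, and the peaks lay at different places. The Pax6-HIGH peak was in intron 63, 139815 bp from the start, with a pileup of 58 and a fold enrichment of 4.61. Fold enrichment is the ratio to the background that the peak caller set for the peak. That background was 11.8 fragments here and at other Pax6-HIGH peaks of *Cubn* and *Cdh16*, so it was not always local. The Pax6-OFF peak was in intron 2, 34272 bp from the start, with a pileup of 41 and a fold enrichment of 3.54. It ranked 9552 of 14022 by pileup, with 29.5% of the line's peaks lower, whereas the Pax6-HIGH peak stood above 54.1% of its own line's peaks. Neither line had a peak at the *Lrp2* start. The 300 bases around the summit of the renal peak are shown because they hold matches to AP-1 (TGANTCA) and TEAD (GGAATG) motifs, which are in capitals here and below whichever strand they match. The sequence is chr2:69389700-69389999 of mm9, minus strand.
Lrp2 intron 2, Pax6-OFF: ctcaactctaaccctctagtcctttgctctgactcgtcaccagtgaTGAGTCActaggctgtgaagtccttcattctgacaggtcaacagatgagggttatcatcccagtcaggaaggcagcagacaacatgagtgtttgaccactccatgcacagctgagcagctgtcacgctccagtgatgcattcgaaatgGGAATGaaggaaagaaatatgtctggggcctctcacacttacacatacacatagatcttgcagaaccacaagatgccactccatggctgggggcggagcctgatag

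*Cubn* encodes cubilin, the partner of megalin in protein uptake, and it had more peaks than any other tubule gene. It lies on chromosome 2 from 13197965 to 13413551 on the minus strand (ENSMUSG00000026726.8). Its window held 9 peaks in the insulinoma line and 2 in each of the other lines. One site was called in all 3 lines, but it belonged to the start of *Rsu1*, a neighboring gene whose start lies within 10 kb of the *Cubn* end. This peak had pileups of 214, 99 and 74 in Pax6-HIGH, Pax6-ON and Pax6-OFF cells and was the highest-ranked tubule-window peak in Pax6-ON and Pax6-OFF cells, above 82.7% and 77.1% of their peaks. Without it, the Pax6-ON and Pax6-OFF windows of *Cubn* each held 1 peak.

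Inside *Cubn*, 7 of the Pax6-HIGH peaks were intronic and lay in introns 27 to 40. The highest was in intron 31, with a pileup of 113 and a fold enrichment of 4.73, above 85.4% of the line's peaks. Pax6-ON cells had a peak at the same place, with a pileup of 45, above 19.3% of its line's peaks. The renal line shared another of these sites with Pax6-HIGH cells, in intron 27. There the pileup was 63 in the insulinoma line and 37 in the renal line, above 59.2% and 19.6% of each line's peaks. The other 5 intronic sites of Pax6-HIGH cells, with pileups from 30 to 102, and a weak peak 6191 bp upstream of the start had no counterpart in the other lines. The window of 1 of these sites, in intron 40 with a pileup of 41, consisted of near-identical copies of a short sequence. Whether this affected its call was not tested. No line had a peak at the *Cubn* start. The window around the renal summit in intron 27 also held AP-1 and TEAD matches, in capitals, and is printed to be read beside that of *Lrp2*. Here the TEAD match lay inside the called peak, from 13331588 to 13331850, and the AP-1 match lay outside it. It is chr2:13331551-13331850 of mm9, minus strand.
Cubn intron 27, Pax6-OFF: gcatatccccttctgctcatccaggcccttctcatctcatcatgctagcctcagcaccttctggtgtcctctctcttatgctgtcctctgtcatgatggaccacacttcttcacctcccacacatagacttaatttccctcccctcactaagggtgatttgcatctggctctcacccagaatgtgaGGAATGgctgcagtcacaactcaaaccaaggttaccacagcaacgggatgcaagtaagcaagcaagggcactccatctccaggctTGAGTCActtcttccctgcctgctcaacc

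*Slc5a2* encodes SGLT2, the sodium-glucose cotransporter that recovers most filtered glucose. It spans 6774 bp on chromosome 7, from 135409171 to 135415944 on the plus strand, and had no peak in its window in any line. The nearest peaks to its start lay 27034, 27102 and 26917 bp upstream in the insulinoma, lens and renal lines. All were at a single promoter region shared by *Armc5* and *9130023H24Rik*, with pileups of 99, 47 and 124. In the insulinoma, lens and renal lines that neighboring peak ranked 5312 of 28024, 7306 of 9821 and 731 of 14022.

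*Slc22a6* encodes OAT1, the basolateral organic anion transporter of the proximal tubule. It lies on chromosome 19 from 8692486 to 8702789 on the plus strand, and its window held no peak in any line. The nearest peak lay 94875, 123353 and 95343 bp downstream of the start in the insulinoma, lens and renal lines. In the insulinoma and renal lines it was at the start of *Slc3a2*, a subunit of amino acid transporters that most cells express, and in the lens line at the start of *Stx5a*.

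*Aqp1* encodes the water channel of the proximal tubule and descending thin limb and is also made by endothelium and red cells. It lies on chromosome 6 from 55286426 to 55298549 on the plus strand. The insulinoma line had 2 peaks in the window, the lens line 1 and the renal line none. The peak in intron 1 of Pax6-HIGH cells, 5455 bp past the start, had a pileup of 318 and ranked 209 of 28024, above 99.2% of the peaks. By pileup over the whole file this was the highest rank of any peak in a tubule-gene window. A further peak lay at the *Aqp1* start in Pax6-HIGH cells, with a pileup of 88, a fold enrichment of 3.16 and 76.0% of peaks lower. The Pax6-ON peak was also in intron 1 but 2639 bp past the start, with a pileup of 37 and 4.71% of peaks lower, and it overlapped neither of the others.

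Chromosome 6 carried 14.9% of all Pax6-HIGH peaks, against 6.62% for the lens line and 4.81% for the renal line, and *Aqp1* lies on it. Ranked among chromosome 6 peaks alone, the intron 1 peak of Pax6-HIGH cells still stood above 98.3%. Ranked by fold enrichment, it stood above 85.0%, and the local background there was 52.1 fragments. The *Rsu1* start in the *Cubn* window of the same line stood higher on both of these scales, above 98.4% and 96.0%. The part of this chromosome-wide excess in the *Aqp1* peaks was not tested. In the renal line the nearest peak to the *Aqp1* start was 41288 bp upstream. The 300 bases around the intron 1 summit of Pax6-HIGH cells are shown as the site with the highest pileup in any tubule-gene window. They hold no match to any motif searched, so no letters are in capitals (chr6:55291731-55292030 of mm9, plus strand).
Aqp1 intron 1, Pax6-HIGH: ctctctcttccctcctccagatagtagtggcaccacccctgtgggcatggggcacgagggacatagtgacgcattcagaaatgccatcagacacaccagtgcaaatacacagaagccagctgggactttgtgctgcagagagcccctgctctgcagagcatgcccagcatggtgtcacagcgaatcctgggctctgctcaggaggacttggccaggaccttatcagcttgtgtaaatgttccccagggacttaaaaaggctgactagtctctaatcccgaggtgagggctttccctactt

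**Figure D2:**
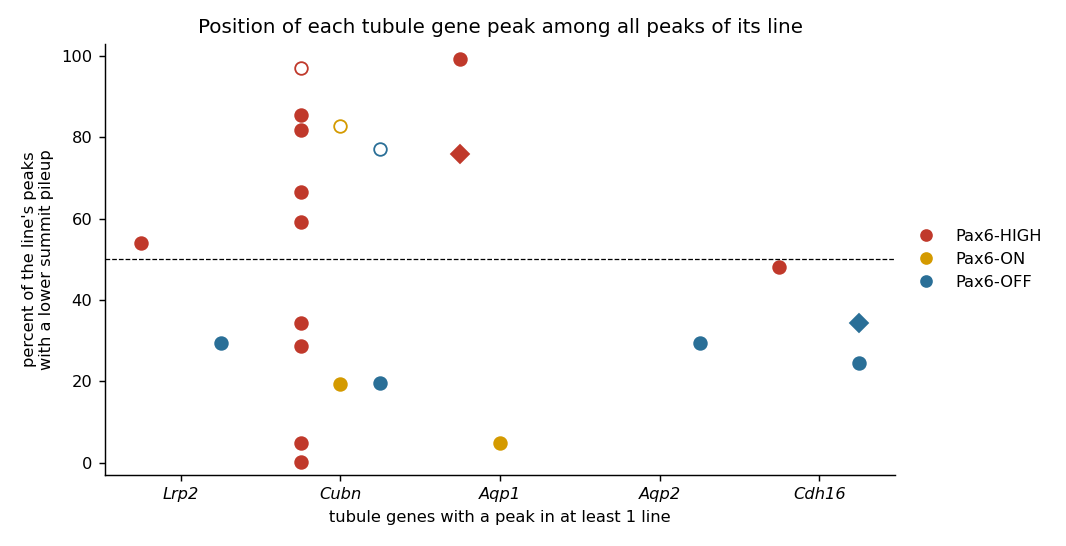
Percent of the peaks of the same cell line with a lower pileup, for every peak in a tubule-gene window. Each point is a peak, grouped by gene and colored by line, and the dashed line marks 50%. In Pax6-OFF cells, 5 of the 6 peaks lie under the line, and the exception is the *Rsu1* start downstream of *Cubn*.

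For the thick ascending limb, neither gene had a peak in its window in any line. *Slc12a1* encodes NKCC2, the apical sodium-potassium-chloride cotransporter that loop diuretics block. It spans 77498 bp on chromosome 2, from 124978241 to 125055738 on the plus strand. The nearest peaks to its start lay 15532 bp away at the start of *Ctxn2* in the insulinoma line, 94678 bp away at *Dut* in the lens line and 28887 bp away at *Myef2* in the renal line. The first was the shortest such distance among the genes with no window peak in any line. *Umod* encodes uromodulin, the most abundant protein of normal urine. It lies on chromosome 7 from 126606380 to 126622769 on the minus strand and was the farthest of the 10 genes from any peak in the insulinoma and renal lines. Its nearest peaks, at the start of *Thumpd1*, lay 241051, 241100 and 241312 bp upstream in the insulinoma, lens and renal lines.

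*Slc12a3*, the thiazide-sensitive sodium-chloride cotransporter NCC of the distal convoluted tubule, had no peak in any line either. It lies on chromosome 8 from 96853092 to 96890113 on the plus strand. The nearest peaks were at the start of *Herpud1*, 57042 bp from the *Slc12a3* start in the insulinoma line and 57069 bp in the renal line, and at *Nup93* in the lens line, 114402 bp away. The cotransporter genes *Slc5a2*, *Slc12a1* and *Slc12a3* were thus without a called open site within 10 kb in the renal line and in both other lines. Many genes of their window classes also had none, as the shares above show. With 50 kb on either side, each of these genes had a peak in the renal line.

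*Aqp2* encodes the vasopressin-regulated water channel of the collecting duct and, in the full files, was the only tubule gene with a window peak in the renal line alone. This peak was lost with 9821 peaks in each line, where *Lrp2* and *Cdh16* had peaks in the renal line alone, and it lay outside the window when the gene body was used without flanks. The gene is on chromosome 15 from 99409487 to 99414976 on the plus strand. Pax6-OFF cells had 1 peak with its summit 452 bp past the end of the gene and 5852 bp from the start of *Aqp5*, a related water channel gene further along. Its pileup was 41 and its fold enrichment 3.02, above 29.5% of the line's peaks. The *Aqp2* start had no peak in any line, and the nearest peaks to it in Pax6-HIGH and Pax6-ON cells were 79903 and 146338 bp away. The sequence around this site is given because no other line had it. It held no match to the motifs searched (chr15:99415278-99415577 of mm9, plus strand).
Aqp2 downstream, Pax6-OFF: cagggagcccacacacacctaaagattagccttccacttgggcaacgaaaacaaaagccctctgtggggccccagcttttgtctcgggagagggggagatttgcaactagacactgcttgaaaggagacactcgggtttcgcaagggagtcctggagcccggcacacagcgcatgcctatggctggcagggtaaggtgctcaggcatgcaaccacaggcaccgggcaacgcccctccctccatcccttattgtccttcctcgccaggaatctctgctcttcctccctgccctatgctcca

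*Cdh16* encodes kidney-specific cadherin, an adhesion protein found along the whole tubule, and it was the only tubule gene whose own start was open in the renal line. The gene is on chromosome 8 from 107125813 to 107148296 on the minus strand. Its window held 1 peak in the insulinoma line, none in the lens line and 2 in the renal line. The start peak of Pax6-OFF cells, from 107148047 to 107148446, had its summit 18 bp upstream of the nearest annotated start. Its pileup was 43, its fold enrichment 3.71 and its q-value 10.4 on the −log10 scale. It ranked 8886 of 14022, above 34.3% of the line's peaks, so it was present but not among the stronger sites. The second Pax6-OFF peak, in intron 17 near the far end of the gene, had a pileup of 39 and overlapped the Pax6-HIGH peak, which had 53. These stood above 24.5% and 48.2% of the peaks of their lines. Both renal windows are printed, the start first, because *Cdh16* alone had a start peak in the renal line and shared its other site with the insulinoma line. They are chr8:107148164-107148463 and chr8:107126613-107126912 of mm9, minus strand, and neither holds an exact match to the motifs searched.
Cdh16 start, Pax6-OFF: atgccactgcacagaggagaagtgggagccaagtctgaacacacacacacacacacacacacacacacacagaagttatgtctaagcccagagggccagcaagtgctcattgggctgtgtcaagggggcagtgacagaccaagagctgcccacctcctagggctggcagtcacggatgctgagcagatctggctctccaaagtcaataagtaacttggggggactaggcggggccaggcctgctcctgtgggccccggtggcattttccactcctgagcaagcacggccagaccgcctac
Cdh16 intron 17, Pax6-OFF: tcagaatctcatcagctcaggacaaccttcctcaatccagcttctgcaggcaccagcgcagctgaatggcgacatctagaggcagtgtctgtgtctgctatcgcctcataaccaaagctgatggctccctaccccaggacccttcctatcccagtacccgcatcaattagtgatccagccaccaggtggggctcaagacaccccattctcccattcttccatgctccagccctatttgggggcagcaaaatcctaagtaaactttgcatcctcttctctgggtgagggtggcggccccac

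Counted over all windows, the tubule genes had 13, 3 and 6 peaks in the insulinoma, lens and renal lines. Introns held 10, 2 and 3 of them. In the same order, the median peak stood above 59.2%, 19.3% and 29.5% of its line's peaks, where 50% is the middle of the file. Merged by overlap of at least 1 bp, the 22 peaks formed 17 sites, of which 13 were called in 1 line and 4 in more than 1. Pax6-HIGH cells alone had 9 sites, Pax6-OFF cells alone had 3 (*Lrp2* intron 2, *Aqp2* downstream and the *Cdh16* start) and Pax6-ON cells alone had 1. No site was shared by Pax6-ON and Pax6-OFF cells only. The share of all peaks called in 1 line or in more is not given, so these site counts are not a result about the tubule genes.

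Promoter sequence was read for what the 10 genes share that the choice did not use. For each gene, the ratio of observed to expected CpG dinucleotides was taken from 250 bases before to 50 after the start. Tubule genes had a median ratio of 0.201, against 0.553 for all 22359 genes with a coding transcript. *Umod* had no CpG in this window, *Slc12a1* had a ratio of 0.0987, and *Slc22a6* and *Slc12a3* each had 0.116. *Lrp2* was the highest at 0.699, followed by *Aqp2* at 0.361 and *Aqp1* at 0.330. When all genes were split into 3 classes of equal size by this ratio, 7 tubule genes fell in the lowest class, 3 in the middle and 0 in the highest.

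Start peaks were scarce across the lowest class as a whole. In Pax6-OFF cells, 6.43% of its genes had a start peak, against 34.5% in the middle and 67.2% in the highest class. The same shares were 9.83%, 49.5% and 80.0% for the insulinoma line and 4.35%, 21.7% and 38.2% for the lens line. *Cdh16*, with a ratio of 0.230, was thus open at its start in a class where few genes were, while *Lrp2* had the highest ratio of the 10 and no start peak in any line. In the renal line, 1 of the 7 tubule genes of the lowest class and 0 of the 3 of the middle class had a start peak.

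**Figure D3:**
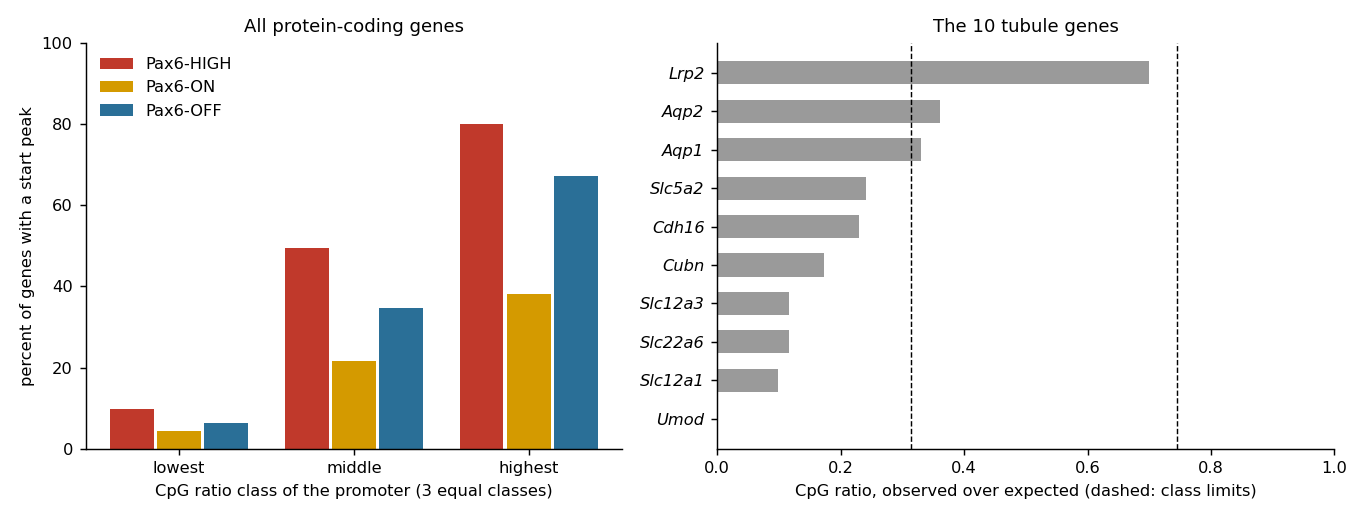
Percent of protein-coding genes with a peak within 1 kb of a transcript start, by class of promoter CpG ratio and cell line, beside the ratio of each tubule gene with the class limits as dashed lines. In every line the share climbs from the lowest to the highest class, and 7 of the 10 tubule genes sit in the lowest.

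Motifs were searched on both strands in 300 bases around each summit and in the promoters. Besides AP-1 and TEAD they were the HNF1 arm GTTAAT, HNF4 (CAAAGTCCA) and the estrogen-related receptor (TCAAGGTCA). The longer HNF1 palindrome, which contains the arm, and the CTCF motif were searched as well, and these and the estrogen-related receptor motif matched none of the windows or promoters of the 10 genes. HNF1 and HNF4 are transcription factors that proximal tubule genes are known to need. No renal-line window of a tubule gene held an HNF1 or HNF4 match, and across all renal-line windows the HNF1 arm was in 4.61% and HNF4 in 0.159%, so 0 of 6 lies beside low shares. The HNF1 arm was in 2 of 13 insulinoma-line windows, at *Cubn* introns 28 and 27, beside 6.40% of all, and in 0 of 3 lens-line windows, beside 5.21%. AP-1 was in 2 of the 6 renal-line windows, beside 14.4% of all windows of that line, and TEAD was in the same 2, beside 14.0%. A window could reach past its peak, and the renal-line AP-1 match at *Cubn* intron 27 lay outside the called peak. In Pax6-ON cells both motifs were in 2 of 3 windows, at *Cubn* intron 31 and *Aqp1* intron 1, where 28.0% and 18.5% of all windows held them. The TEAD match at *Aqp1* intron 1 lay outside the called peak. In Pax6-HIGH cells AP-1 was in 2 of 13 windows and TEAD in 3, beside 12.3% and 13.0%. Numbers this small are a description of these windows.

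Of the 10 promoters, those of *Slc22a6* and *Umod* held the HNF1 arm, which 6.15% of all promoters hold, and each also held a TEAD match, as 13.2% do. The *Slc5a2* promoter held an AP-1 match, as 6.76% do. Neither *Slc22a6* nor *Umod* had a peak in any line, so both sequences below, with HNF1 arms and TEAD matches in capitals, come from promoters without a called open site. They are chr19:8692236-8692535, plus strand, and chr7:126622720-126623019, minus strand, of mm9.
Slc22a6 promoter: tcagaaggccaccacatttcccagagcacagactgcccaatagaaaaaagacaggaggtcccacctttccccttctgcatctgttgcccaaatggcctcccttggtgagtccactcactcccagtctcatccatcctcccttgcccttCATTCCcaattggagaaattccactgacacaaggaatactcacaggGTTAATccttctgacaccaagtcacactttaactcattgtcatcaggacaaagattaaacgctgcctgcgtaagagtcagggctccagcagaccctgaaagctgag
Umod promoter: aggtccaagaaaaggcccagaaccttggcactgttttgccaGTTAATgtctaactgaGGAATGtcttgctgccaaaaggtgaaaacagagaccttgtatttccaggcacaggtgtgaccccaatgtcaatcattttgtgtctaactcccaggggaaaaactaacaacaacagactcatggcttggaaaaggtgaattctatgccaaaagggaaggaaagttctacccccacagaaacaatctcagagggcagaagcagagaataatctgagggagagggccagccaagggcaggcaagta

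Other genes of the same segments were read from a list of 64, of which 63 matched a single gene model. In Pax6-OFF cells, 12 of the 63 (19.0%) had a peak at their own start and 24 (38.1%) in their window, below the shares of all genes given above. These counts were 12 and 27 for the insulinoma line, and 8 and 15 for the lens line. With 9821 peaks in each line, the start counts were 7, 8 and 10 for the insulinoma, lens and renal lines, so the order of the lines depended on the number of peaks. The share of all genes at that setting is not given.

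The starts open in the renal line are given by segment, beside the 36.1% of all genes with a start peak in that line. In the proximal tubule group 2 of 21 genes had one, *Slc6a19*, the neutral amino acid transporter, and *Slc17a1*, a phosphate and urate transporter. None of the 10 thick ascending limb genes did. In the distal convoluted tubule group there were 4 of 10, namely *Wnk1*, *Wnk4* and *Stk39*, kinases that regulate NCC, and *Egf*. In the collecting duct group there was 1 of 13, *Hsd11b2*, the enzyme that inactivates glucocorticoids and so guards the mineralocorticoid receptor. Among genes used in all segments there were 5 of 9. They included *Pkd1* and *Pkd2*, the polycystin genes, *Slc12a2*, the basolateral relative of NKCC2, and *Atp1b1*, a subunit of the sodium pump. The insulinoma line had the same counts in the last 3 groups, 4 of 10, 1 of 13 and 5 of 9, and 1 each in the first 2.

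The strongest of these starts in Pax6-OFF cells was *Slc6a19*, with a pileup of 110 and 92.1% of peaks lower. *Pkd1*, *Wnk1* and *Atp1b1* followed with pileups of 81, 79 and 77, then *Egf* with 72, *Slc12a2* with 65 and *Pkd2* with 61. *Stk39* and *Wnk4* had 51 and 43. *Slc17a1* and *Hsd11b2* had 33 and 31, above 10.1% and 5.81% of peaks. Of these, all but *Wnk4*, *Slc17a1* and *Hsd11b2* had a higher pileup than the *Cdh16* start. The start peaks of *Slc17a1* and *Hsd11b2* were the only ones of the 12 that neither other line had.

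**Figure D4:**
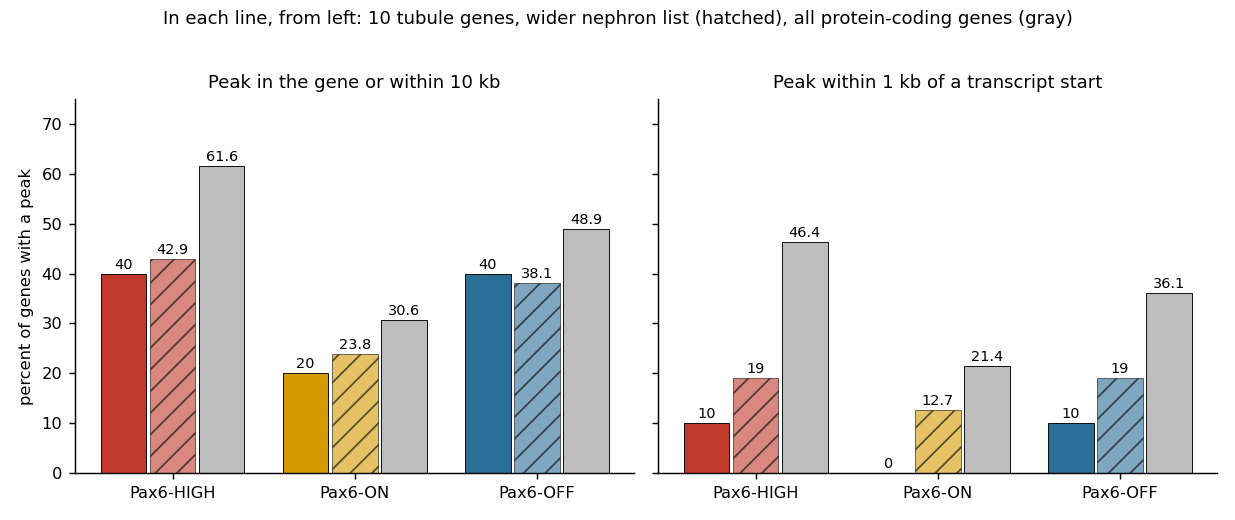
Percent of genes with a peak in the window and at their own start, for the 10 tubule genes, the wider nephron list and all protein-coding genes in each cell line. In every line both lists lie below the share of all genes.

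The marker lists were read as a check of the labels. The start counts below stand beside the shares of all genes with a start peak, 46.4%, 21.4% and 36.1% in the insulinoma, lens and renal lines. The Pax6 gene itself, for which the lines are named, had a start peak in Pax6-HIGH cells (pileup 175, above 95.0% of peaks) and in Pax6-ON cells (74, above 65.8%), and no window peak in Pax6-OFF cells. Of 8 renal epithelial transcription factors, 2 had a start peak in Pax6-OFF cells, *Pax2* and *Emx2*, with pileups of 44 and 68, and *Pax8*, *Hnf4a* and *Wt1* had no peak in their windows. The epithelial genes *Cdh1* and *Epcam* had no window peak in any line, and of 5 mesenchymal genes, 1, 1 and 2 had a start peak in the insulinoma, lens and renal lines, the last at *Pdgfra* and *Vim*. Of 10 beta cell genes, 6, 3 and 1 had a start peak in the insulinoma, lens and renal lines, but *Ins1* and *Ins2* had no window peak in any line. Of 9 lens genes, 3 had a start peak in each line, and *Foxe3*, *Cryaa* and *Cryab* had none in the windows of Pax6-ON cells. Of 4 endothelial and blood genes, 0, 1 and 0 had a start peak. How far such differences between lines bear on the tubule-gene peaks was not tested.

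Among the listed nephron genes, the pattern of rank over the 3 lines (the percent of peaks below the highest peak of the window, 0 where none) was compared with that of each tubule gene open in the renal line. *Lrp2* and *Cdh16* were both nearest to *Anpep*, a brush border peptidase, with summed differences of 13.6 and 7.68 percentage points, and next to *Slc22a2*, with 34.5 and 23.9. *Aqp2* was nearest to *Klhl3*, with 2.45 points, and next to *Slc17a1*, with 19.4. *Cubn* was nearest to *Egf*, with 17.4 points, and next to *Slc34a3*, with 63.6, where the *Cubn* value is that of the *Rsu1* start. With 3 lines, such a likeness describes these files only.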

How the data were processed

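The data are ATAC-seq peak calls, 1 for each of 3 lines with 2 replicates. Per the file headers and the labels, the authors trimmed reads with Trim Galore 0.4.1, aligned them to mm9 with Bowtie2 2.2.6 and called peaks with MACS2 2.1.1 on whole fragments of both replicates pooled, with no control library and a q-value cut of 0.05. Fragments were not shifted to the Tn5 cut site, which can widen peaks, and all duplicates in the input were kept. Whether duplicates had been removed before that is unclear, so a pileup may count copies of a fragment. The deposited pileup is a signal, the fragments at the summit, not scaled for depth, so ranks within a line were compared and pileups between lines were not. In the deposited tables, fold enrichment is a ratio, pileup over the background that the caller set for the peak, and the authors' q-values are deposited as −log10 values. The narrowPeak files hold the same peaks and were not used, nor were the p-values.

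Peaks were joined to GENCODE M1 genes on NCBIM37, the assembly of mm9, with Python 3.11.15, pandas 2.3.3 and pysam 0.24.0. No peak passed a chromosome end. The scripts were tested on simulated data, where 100% of 200 peaks planted among 22367 genes were recovered. All 10 tubule genes are named, with the listed nephron genes that had a start peak in Pax6-OFF cells, genes whose start a peak in a tubule-gene window marked, and the 2 most alike in pattern. Genes beyond this rule, such as the neighbors of the nearest peaks and the marker genes, were named after their values were seen. The genes and lists were chosen with earlier results of these data known. Some listed genes count in the totals but are not reported here by name. Alternatives were other q-value cuts, equal numbers of peaks, other window sizes, other overlaps and other ranks.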

Additional observations from a re-analysis of the deposited data

How the results depend on the processing

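No paired analysis was possible because the replicates of each line were pooled in 1 peak call, and for the same reason no replicate could be left out. Of the 67 counts recomputed under other settings, 59 stayed within 1.5 times the reported value and 8 did not. Some of them had little room to change, so the tally does not measure how firm the counts are. The Pax6-ON count of tubule genes with a start peak was 0 at every setting, and the q-value cut of 0.01 kept 13930 of 14022 Pax6-OFF peaks. With the same number of 9821 peaks in each line, Pax6-HIGH cells had a peak in the windows of 2 tubule genes (Cubn and Aqp1), 5 peaks in all, 0 tubule genes with a start peak and 7 listed nephron genes with one. In Pax6-OFF cells the same setting gave 3 tubule genes (without Aqp2), 4 peaks, 1 start peak at Cdh16 and 10 listed genes, and in Pax6-ON cells no count changed. With 50 kb on either side of the gene, 7, 5 and 8 tubule genes had a peak in the insulinoma, lens and renal lines, and in the renal line Slc22a6 and Umod still had none. Shares of all genes are not given at equal numbers of peaks or at 50 kb, so those counts have no background beside them. Requiring an overlap of 50% of both peaks left 2 shared sites in place of 4. Ranked by fold enrichment, the Pax6-OFF peaks of Cdh16, Lrp2 and Aqp2 stood above 45.2%, 40.4% and 24.3% of the line's peaks. The cause of these changes was not tested. A pileup under 25 fragments, or 30 in Pax6-ON cells, was below any called peak, so weaker sites at these genes were not detectable at this depth.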
